A study of Mus musculus with 13 samples.

Results

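Liph, Ache, Sstr2, Crip3, Snap91, Abat, Adamtsl2, Pkhd1l1, Rerg and Msln are 10 mouse genes, of 24394 in the count table, that are seldom named in work on the thymus and that were picked because their level stood far above the fibroblast level in cells programmed with Foxn1, with close replicates. The genes were chosen by their levels in programmed cells relative to fibroblasts, so these levels are given as a description without a test. The question put to each gene was whether fetal thymic epithelial cells (TEC) carry it too.

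Foxn1 is the transcription factor that the thymic epithelium needs to form. It binds DNA through a short core motif, GACGC, and is known in mouse to drive genes of the cortical TEC that feed, attract and select developing T cells, such as Psmb11, Ccl25 and Dll4. Fibroblasts in which Foxn1 is switched on take up part of this gene programme and are called induced TEC (iTEC).

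RNA of 13 libraries in 6 groups was counted. Fetal TEC were untreated cells of E15.5 mice (n = 2), with no genotype given. Untreated mouse embryonic fibroblasts (MEF) came from E13.5 embryos (n = 2), and the protocol names them as primary iFoxn1/+ cells of no more than 5 passages, which carry a copy of Foxn1 that Cre recombinase turns on. The iTEC came from such MEF after nucleofection of a plasmid with Cre under the PGK promoter and were taken at day 2 (n = 2) and day 10 (n = 3), or at day 12 after a sort for the epithelial adhesion protein Epcam, as Epcam-positive (n = 2) and Epcam-negative cells (n = 2). The genotype field is not filled in for any sample, and a single protocol text stands under all of them. Whether the replicates are separate cultures or animals is not stated, and p-values then measure only the spread between these libraries, which may be technical.

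Levels are given as CPM, which are counts scaled to a common library size with the TMM factor, from libraries of 35805780 to 86465460 counts. Foxn1 was at 362 and 362 CPM in fetal TEC and 15.65 ± 3.749 CPM in MEF (SD, n = 2), and it was at 299 to 382 CPM at day 2, 422 to 440 CPM at day 10, 292 to 326 CPM in Epcam-positive and 391 to 468 CPM in Epcam-negative cells. Transgene and native Foxn1 share the symbol and were not told apart. The 12 TEC markers summed to 33950 to 50760 CPM in fetal TEC and 372 to 425 CPM in MEF, where Epcam, Dll4, Krt5 and Krt14 were at 0. All 12 thymocyte markers were detected in fetal TEC (661 to 1405 CPM in sum), of which 9 were at 0 in MEF. Their sum in MEF was still 607 to 1112 CPM, and Thy1, also on the fibroblast list, was lower in fetal TEC (log2 change -6.86 ± 1.30). The 8 endothelium markers summed to 101 to 153 CPM in fetal TEC and 7.04 to 8.94 CPM in MEF. Macrophage markers summed to 513 to 549 CPM in fetal TEC and 3217 to 3283 CPM in MEF, to 11.8 to 18.1 CPM in iTEC at day 2 and day 10 and in Epcam-negative iTEC, and to 76.5 to 229 CPM in Epcam-positive iTEC.

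Some libraries stood apart. The Spearman correlation of counts with transcript length across genes was 0.31 to 0.35 in 10 libraries but 0.02 in Epcam-positive replicate 2 and 0.01 and -0.04 in the fetal TEC libraries, so long genes had low counts in these 3 libraries relative to the rest. This difference lies along the group in every comparison with fetal TEC and cannot be told apart from it. A fit with an offset for transcript length, chosen after seeing the data, is therefore given for the 10 genes where it changed a call or moved a log2 change by more than 1.5-fold. For Crip3 and Pkhd1l1, which had no count in MEF, the contrast with MEF is a lower bound and is given without the offset. Both Epcam-positive libraries differed far more than other pairs, with a median chi-square of 729 times the sampling expectation, against 1.81 to 188 in the other groups. Xist was at 1239 to 2475 CPM in MEF and 688 to 923 CPM in Epcam-negative cells and at 0 to 10.6 CPM elsewhere, and 4 Y-linked genes had the reverse pattern. The sex of the cells thus differs with the group in several comparisons and cannot be told apart from it. All 10 genes lie on autosomes.

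The 10 genes did not share a single pattern with respect to fetal TEC. Against MEF, 9 of the 10 were higher in fetal TEC (31.5% of all 17004 tested genes were called higher) and 1, Rerg, was lower (26.3% of all genes), so all 10 were called in a contrast that called 57.8% of genes. The median log2 change of the 10 was 6.07, or 5.93 with the 2 genes that had no count in MEF at their lower bound, beside 0.18 over all tested genes. Against day 10 iTEC, 3 of the 10 were higher in fetal TEC (31.7% of all genes), 6 were lower (27.6% of all genes) and Snap91 did not pass the test, in a contrast that called 59.3% of genes. Here the median was -1.56, beside 0.10 over all genes. The MEF and day 10 libraries were among those that chose the genes, so the choice itself leans the contrast with MEF upward and the contrast with day 10 downward, and neither count is independent evidence of direction.

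Read gene by gene, the fetal TEC libraries carried Ache, Crip3 and Msln at levels above those of day 10 iTEC. They also carried Snap91, which did not pass the test against day 10 and was above day 10 with the length offset. Liph, Sstr2 and Abat were present in fetal TEC and lower than in day 10 iTEC, with log2 changes of -1.56, -1.56 and -1.58. With the length offset these were -1.26, -2.60 and -0.56, and the change of Abat did not pass. Adamtsl2 was present in fetal TEC above its MEF level but 16.9-fold below day 10 iTEC (log2 change -4.08, or -2.50 with the length offset). Pkhd1l1 was at a trace in fetal TEC and Rerg was below its fibroblast level there, so that high levels of these genes were seen in programmed fibroblasts and not in fetal TEC. Their log2 changes against day 10 were -7.75 and -7.46, or -5.17 and -8.49 with the length offset. Epcam-positive replicate 2, an iTEC library with the same length difference, had 7.78 CPM of Pkhd1l1, against 294 CPM in Epcam-positive replicate 1. The fetal TEC libraries also held RNA of markers of thymocytes, macrophages, endothelium, muscle, neuroendocrine cells, neurons and mesothelium. Which cells the transcripts of these markers and of the 10 genes came from was not tested. All tests are edgeR quasi-likelihood tests with Benjamini-Hochberg adjustment over all tested genes, and a call is an adjusted p under 0.05.

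**Figure D1:**
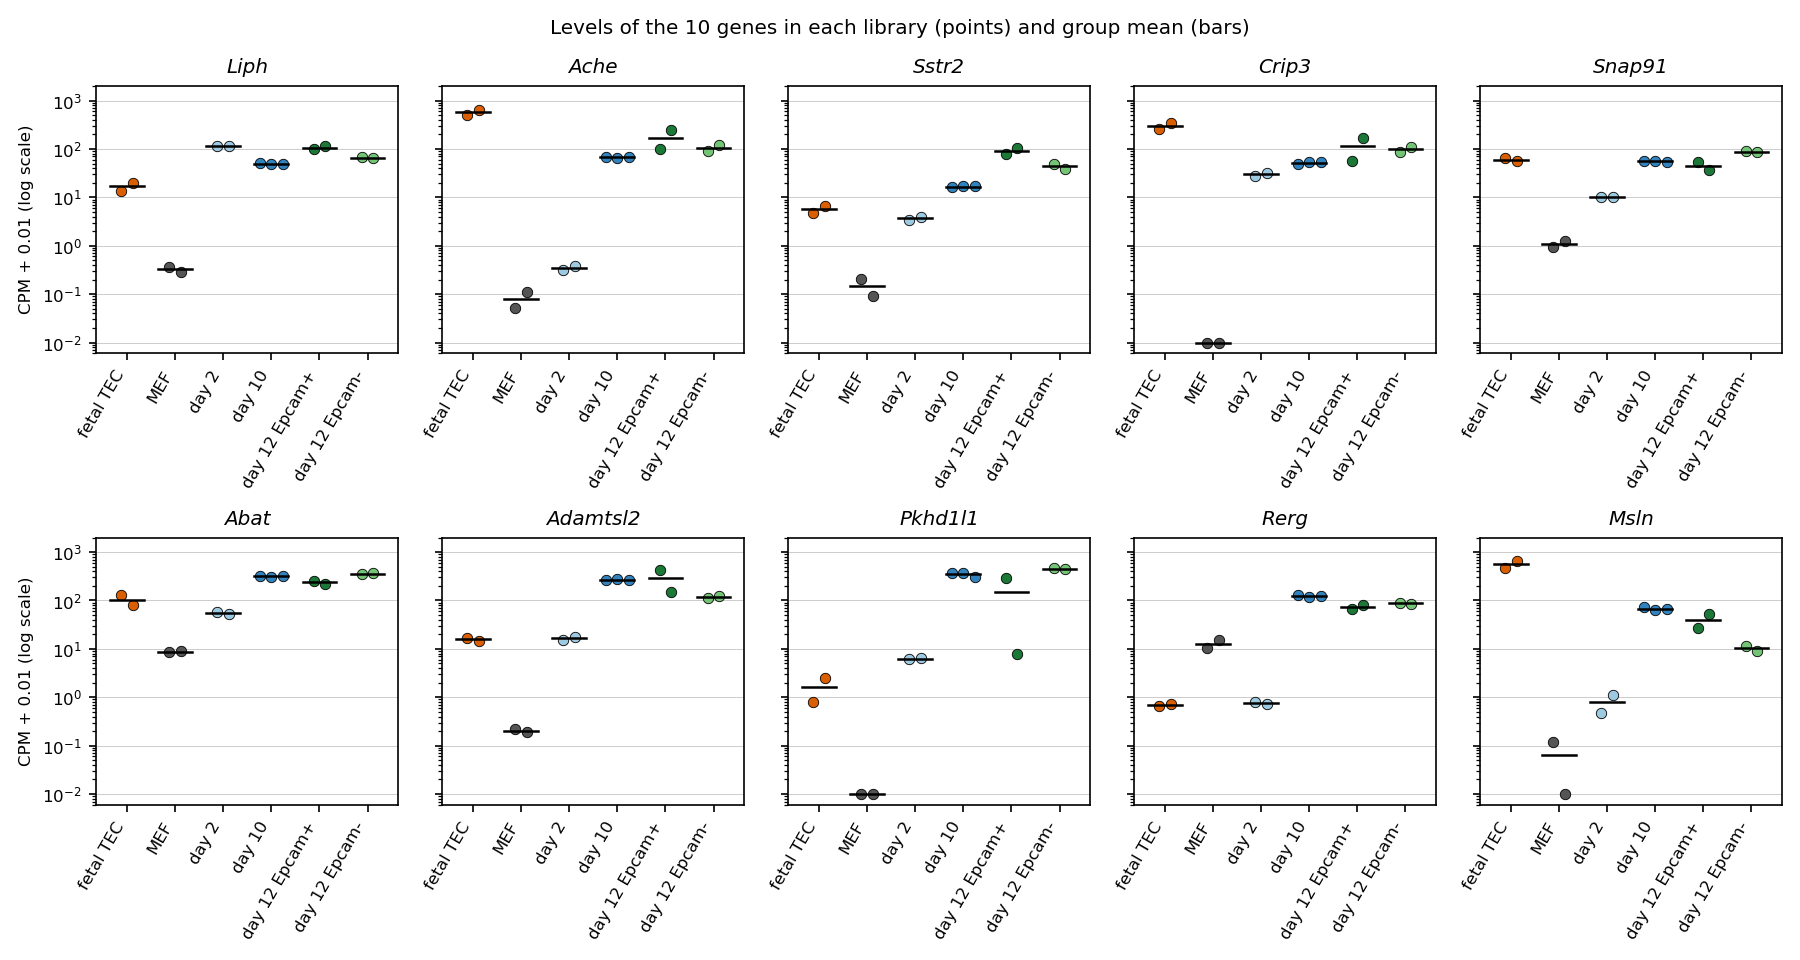
Level of each of the 10 genes in CPM plus 0.01 on a log axis, by group from fetal TEC and MEF through day 2, day 10, Epcam-positive and Epcam-negative iTEC. Points are libraries and bars are group means. Ache, Crip3 and Msln reached 578, 298 and 556 CPM on average in fetal TEC, and Pkhd1l1 and Rerg 1.61 and 0.694 CPM.

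Windows of 300 bases around the annotated start (250 before to 50 after, RefSeq, GRCm38.p6) were at hand for 5 of the 10 genes: Liph, Ache, Sstr2, Snap91 and Adamtsl2. They were searched on both strands for GACGC, the core of the Foxn1 motif, and for TATAAA, the TATA box, which do not overlap each other in letters. Snap91 (chr9:86880659-86880958, minus strand) held GACGC at 2 places, starting at -23 and -2 from the start, and Adamtsl2 (chr2:27079129-27079428, plus strand) held TATAAA at -30. Liph (chr16:21995493-21995792, minus strand), which was already high at day 2, held neither motif, and the windows of Ache and Sstr2 held neither as well. GACGC was present in 27.2% and TATAAA in 13.6% of all 32851 such windows, so each match is a description and not a site. The sequences are shown 5′ to 3′ on the gene's strand, with the motif in capitals.
Snap91: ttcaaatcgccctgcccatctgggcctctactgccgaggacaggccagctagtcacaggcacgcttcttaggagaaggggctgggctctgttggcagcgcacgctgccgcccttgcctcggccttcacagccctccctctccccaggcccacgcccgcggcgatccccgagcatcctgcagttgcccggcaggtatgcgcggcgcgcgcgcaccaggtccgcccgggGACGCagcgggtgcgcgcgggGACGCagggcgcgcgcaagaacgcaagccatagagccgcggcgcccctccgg
Adamtsl2: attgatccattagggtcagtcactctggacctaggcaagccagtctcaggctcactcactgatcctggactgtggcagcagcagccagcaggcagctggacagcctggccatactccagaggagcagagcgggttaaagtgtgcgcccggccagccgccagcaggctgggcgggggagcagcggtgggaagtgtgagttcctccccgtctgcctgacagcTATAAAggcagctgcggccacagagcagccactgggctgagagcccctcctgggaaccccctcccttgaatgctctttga
Liph: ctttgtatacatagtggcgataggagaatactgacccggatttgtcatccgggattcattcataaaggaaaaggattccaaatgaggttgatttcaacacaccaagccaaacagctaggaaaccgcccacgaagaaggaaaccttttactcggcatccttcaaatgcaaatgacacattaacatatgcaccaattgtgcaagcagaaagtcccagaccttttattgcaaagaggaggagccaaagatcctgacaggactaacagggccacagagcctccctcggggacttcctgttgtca
The Snap91 window was 72.0% G and C, the Adamtsl2 window 62.3% and the Liph window 45.7%, beside a median of 52.7% over all windows. The absence of a match says only that these letters are not in the window.

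The first 4 genes act in transmitter and peptide signalling. Ache encodes acetylcholinesterase, the enzyme that breaks down acetylcholine, and lies on chr5:137287519-137294466 (plus strand; mm10 with GENCODE M21, as are the gene positions that follow). Its level was 506 and 649 CPM in fetal TEC, against 0.0415 and 0.1003 CPM in MEF. In iTEC it was 0.308 and 0.364 CPM at day 2 and 68.5, 65.5 and 66.7 CPM at day 10. At day 12 it was 98.1 and 243 CPM in Epcam-positive and 92.4 and 122 CPM in Epcam-negative cells. Ache was thus low both in MEF (8 counts over the group) and 2 days after Cre (45 counts). The day 2 mean was 4.74-fold the MEF mean, with no overlap of libraries. At day 10 Ache was well above both, and every group but the sorted pair was separate from its neighbours in level. The day 10 mean was 944-fold the MEF mean, which rests on 3 and 5 counts. Fetal TEC were higher than MEF by 13.01 ± 0.72 (log2 ± standard error, edgeR adjusted p = 1.81e-05) and higher than day 10 iTEC by 3.11 ± 0.40 (adjusted p = 0.000339). In bulk RNA of this kind, fewer cells of a type and less RNA per cell cannot be told apart. Ache shares 98 exonic bases with Gm42456 on the other strand, and whether the counting used strand is not stated.

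Among 20 cholinergic genes, 16 were tested, and 5 were higher and 4 lower in fetal TEC than in MEF. Over all tested genes the shares were 31.5% and 26.3%, so these counts are near the background. For this and the lists that follow, the background is 31.7% higher and 27.6% lower in fetal TEC against day 10, and 8.24% higher and 4.41% lower at day 10 against day 2, and a count near it says nothing about the list. Colq, which anchors acetylcholinesterase at the muscle synapse, had 71.2 ± 14.8 CPM in fetal TEC and 0.0691 ± 0.0977 CPM in MEF (SD, n = 2 each; log2 9.86 ± 1.43, edgeR adjusted p = 0.000793), and 0.139 ± 0.0556 CPM at day 10 (n = 3). Slc18a3, the vesicular acetylcholine transporter, had 3.84 ± 1.99 CPM in fetal TEC and no count in MEF. At day 10 against day 2, 3 of the 16 were higher and 0 lower, among them the choline transporter Slc44a1 with 139 ± 2.42 CPM (n = 3) against 26.9 ± 1.36 CPM (n = 2) and the muscarinic receptor Chrm4 with 5.32 ± 0.592 CPM against 0.357 ± 0.00849 CPM. Chrm4 was at 0.0153 CPM in fetal TEC. The 12 skeletal muscle markers summed to 1050 and 2392 CPM in fetal TEC with Myf5 at 0, to 11.2 to 11.5 CPM in MEF with Myod1, Myog, Myf5, Myf6, Actn2 and Ckm at 0, and to 13.8 to 14.8 CPM at day 10. Of these markers 11 were tested, and 9 were higher in fetal TEC than in MEF and 0 lower. RNA of muscle markers was thus higher in fetal TEC than in MEF, as was that of Ache and Colq. At day 10, Ache was well above its MEF level, with Colq at 0.139 CPM and the muscle sum at 13.8 to 14.8 CPM. The part of muscle RNA in these results was not tested.

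Abat encodes the mitochondrial transaminase that breaks down the transmitter GABA and lies on chr16:8513429-8621568 (plus strand). Its level was 128 and 81.6 CPM in fetal TEC, against 8.40 and 9.01 CPM in MEF. The iTEC had 57.9 and 51.3 CPM at day 2, then 315, 303 and 322 CPM at day 10. Epcam-positive cells had 255 and 220 CPM and Epcam-negative cells 350 and 365 CPM. No neighbouring groups overlapped, and fetal TEC lay between day 2 and the later iTEC groups. The day 10 mean was 36.0-fold the MEF mean. The fetal TEC level was above that of MEF by 3.59 ± 0.30 (edgeR adjusted p = 5.35e-05) and lower than day 10 iTEC, with a log2 change of -1.58 ± 0.26 (adjusted p = 0.00119). With the length offset the change against MEF was 4.59, and that against day 10 was -0.56 and did not pass (adjusted p = 0.132), and genes of like transcript length had a median of -1.01 in the contrast with day 10.

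Of 21 GABA genes, 16 were tested, with 5 higher and 4 lower in fetal TEC than in MEF, again near the background, and 2 higher and 0 lower at day 10 than at day 2. The receptor subunit Gabra3 had 57.0 ± 0.987 CPM at day 10 (n = 3) and 0.205 ± 0.0591 CPM at day 2 (n = 2; log2 8.09 ± 1.56, edgeR adjusted p = 0.00876). Gabrp, another receptor subunit, had 7.91 ± 0.615 CPM at day 10 and 0.0753 ± 0.00382 CPM at day 2. Fetal TEC had 2.59 ± 0.0194 CPM of Gabrp, with no count in MEF. The receptor Gabbr1 was lower in fetal TEC, at 3.58 ± 1.17 CPM, than in MEF, at 22.8 ± 1.10 CPM (log2 -2.67 ± 0.46, adjusted p = 0.0018). The enzyme that acts after Abat, Aldh5a1, had 21.7 ± 6.46 CPM in fetal TEC and 4.96 ± 0.313 CPM at day 10 (log2 2.13 ± 0.40, adjusted p = 0.00205), the reverse of Abat itself. The 12 neuron markers summed to 181 to 248 CPM in fetal TEC with none at 0 and to 73.8 to 86.9 CPM in MEF with Rbfox3, Nefl and Dcx at 0. Of 10 tested, 7 were higher in fetal TEC and 2 lower, and the part of neuron RNA in the levels of Abat and Snap91 was not tested.

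Snap91 encodes AP180, which assembles clathrin coats at nerve endings, and lies on chr9:86765923-86880654 (minus strand). Its level was 64.7 and 55.4 CPM in fetal TEC, against 0.912 and 1.22 CPM in MEF. Programmed cells had 10.0 and 9.98 CPM at day 2 and 55.8, 56.5 and 52.9 CPM at day 10. Epcam-positive cells had 54.9 and 36.0 CPM and Epcam-negative cells 91.5 and 85.3 CPM. Day 10 overlapped with both fetal TEC and Epcam-positive cells, with MEF and day 2 below them and Epcam-negative cells above. Relative to MEF, fetal TEC were higher by 5.81 ± 0.35 (edgeR adjusted p = 1.98e-05) and differed from day 10 by 0.12 ± 0.26 (adjusted p = 0.697), which does not show that the levels are equal. Given the length offset, the change against MEF was 7.15 and the difference from day 10 was 1.41 (adjusted p = 0.00268), beside a median of -1.20 without the offset for genes of like length, and by library size alone it was -0.17.

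Of 19 tested clathrin coat genes, 3 were higher and 9 lower in fetal TEC than in MEF, and 2 were higher and 9 lower than at day 10. These counts carry the difference between libraries in long genes given above. Picalm, the widely expressed relative of Snap91, had 15.0 ± 5.47 CPM in fetal TEC and 852 ± 304 CPM in MEF (SD, n = 2 each; log2 -5.83 ± 1.06, edgeR adjusted p = 0.00227). The lipid phosphatase Synj1 had 0.833 ± 0.317 CPM in fetal TEC and 50.4 ± 4.49 CPM in MEF (adjusted p = 0.00214). The clathrin heavy chain Cltc had 115 ± 2.54 CPM in fetal TEC and 1115 ± 11.1 CPM at day 10 (n = 3; log2 -3.28 ± 0.55, adjusted p = 0.00134). Relative to day 2, 3 of the 19 were higher and 1 lower at day 10, with the light chain Cltb higher at 133 ± 1.97 CPM against 28.8 ± 4.76 CPM and the membrane-bending protein Bin1 lower at 34.3 ± 1.18 CPM against 116 ± 2.28 CPM.

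Sstr2 encodes a receptor for the peptide somatostatin and lies on chr11:113619342-113626028 (plus strand), inside the span of Slc39a11 on the other strand with no shared exonic base. Its level was 4.76 and 6.51 CPM in fetal TEC, against 0.194 and 0.0802 CPM in MEF. In iTEC it was 3.43 and 3.91 CPM at day 2 and 16.1, 17.0 and 16.9 CPM at day 10. Epcam-positive cells had 80.3 and 105 CPM and Epcam-negative cells 49.9 and 37.8 CPM. The level stepped up from MEF through day 2 and day 10 to day 12 without overlap, and fetal TEC lay between day 2 and day 10. Fetal TEC were higher than MEF by 5.31 ± 0.46 (edgeR adjusted p = 6.25e-05) and lower than day 10, with a log2 change of -1.56 ± 0.36 (adjusted p = 0.0053). Under the length offset these changes were 4.25 and -2.60.

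Of the 6 other somatostatin genes, 4 were tested, and 2 were higher and 1 lower in fetal TEC than in MEF. The peptide gene Sst had 6.63 ± 5.71 CPM in fetal TEC and no count in MEF (edgeR adjusted p = 0.0142). Sstr1, another receptor, had 14.4 ± 0.965 CPM at day 10 (n = 3) and 0.0753 ± 0.00382 CPM at day 2 (n = 2; log2 7.54 ± 1.40, adjusted p = 0.00726), and 0.142 ± 0.201 CPM in fetal TEC. Sstr4 had 5.06 ± 0.127 CPM at day 10 but only 2 counts over both fetal TEC libraries. The receptors of programmed cells thus included Sstr1 and Sstr4, which fetal TEC held at near 0. Sstr5 went the other way and was called higher in fetal TEC than in MEF (edgeR adjusted p = 0.0336). Its log2 change against day 10 was 5.10 ± 1.81 and did not pass (adjusted p = 0.0532). The 10 neuroendocrine markers summed to 218 and 225 CPM in fetal TEC with Scg3 at 0, to 1.93 to 2.79 CPM in MEF with 5 at 0 (Chga, Insm1, Neurod1, Scg3 and Scg5), and to 8.13 to 9.66 CPM at day 10, where Chga, Neurod1 and Scg3 were at 0. Their part in the fetal TEC levels of Sst and Sstr2 was not tested.

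Liph encodes a membrane-bound lipase that releases the signalling lipid lysophosphatidic acid, and loss of the human gene leaves hair sparse and woolly. It lies on chr16:21953817-21995663 (minus strand) and was already in its highest range at day 2. Its level was 13.65 and 20.04 CPM in fetal TEC, against 0.359 and 0.281 CPM in MEF. After Cre it was 117 and 113 CPM at day 2 and 51.2, 48.6 and 48.9 CPM at day 10. Epcam-positive cells had 97.6 and 114 CPM and Epcam-negative cells 67.9 and 65.2 CPM. Day 2 and Epcam-positive cells overlapped as the highest groups, and the other groups were separate. The day 2 mean was 360-fold the MEF mean and the day 10 mean 155-fold. The fetal TEC level was above that of MEF by 5.70 ± 0.34 (edgeR adjusted p = 1.87e-05) and lower than day 10 (log2 change -1.56 ± 0.26, adjusted p = 0.00127).

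Of 16 genes of lysophosphatidic acid and the lipase family, 12 were tested, and 4 were higher and 2 lower in fetal TEC than in MEF. Pla1a, a phospholipase of the same family, had 32.8 ± 4.43 CPM in fetal TEC and 0.832 ± 0.610 CPM in MEF (SD, n = 2 each; log2 5.31 ± 0.60, edgeR adjusted p = 0.000229). The receptor Lpar3 had 17.4 ± 6.99 CPM in fetal TEC and 0.0415 ± 0.0586 CPM in MEF (adjusted p = 0.00113), with 0.649 ± 0.147 CPM at day 10. Between the days, 2 were higher and 1 lower at day 10 than at day 2. The receptor Lpar4 was lower, at 4.34 ± 0.0266 CPM against 40.3 ± 0.467 CPM (log2 -3.22 ± 0.71, adjusted p = 0.0169), like Liph itself, and the lipase Lpl was higher, at 238.1 ± 16.72 CPM against 91.1 ± 0.664 CPM (adjusted p = 0.0327).

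Msln encodes mesothelin, a lipid-anchored surface protein best known from the mesothelium, and lies on chr17:25748613-25754378 (minus strand). Its level was 461 and 651 CPM in fetal TEC, against 0.111 and 0 CPM in MEF. The iTEC had 0.472 and 1.12 CPM at day 2 and 72.0, 62.8 and 65.8 CPM at day 10. Epcam-positive cells had 26.7 and 53.7 CPM and Epcam-negative cells 11.7 and 8.85 CPM. No neighbouring groups overlapped, and both sorted groups of day 12 were under the day 10 level. The day 10 mean was 1209-fold the MEF mean, which rests on 8 counts in 1 library and 0 in the other. Fetal TEC were higher than MEF by 13.10 ± 1.10 (edgeR adjusted p = 5.58e-05) and higher than day 10 by 3.06 ± 0.60 (adjusted p = 0.00277). With the length offset these changes were 12.05 and 2.02.

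Of the 4 genes of the mesothelin family and its ligand, 2 were tested and both were higher in fetal TEC than in MEF and than at day 10. Mslnl had 26.2 ± 3.59 CPM in fetal TEC and no count in MEF, and 0.880 ± 0.368 CPM at day 10 with no count at day 2. Otoa, a protein of the inner ear matrix, had 2.68 ± 3.45 CPM in fetal TEC and no count in MEF or at day 10. Markers of mesothelium were mostly higher in fetal TEC than in MEF, as Msln was. Of the 9 in the table, 7 were higher in fetal TEC than in MEF and 0 lower, with a median log2 change of 4.54. The uroplakin Upk3b differed by 7.20 ± 1.71 (edgeR adjusted p = 0.00722), Lrrn4 by 6.19 ± 0.85 (adjusted p = 0.000618) and the keratin Krt19, which other epithelia also make, by 5.80 ± 0.77 (adjusted p = 0.000515). Wt1 and Cdh3 had log2 changes of -2.23 ± 1.41 and -0.69 ± 0.46 and did not pass. In sum the 9 were at 286 to 371 CPM in fetal TEC, 144 to 186 CPM in MEF and 118 to 130 CPM at day 10, with none at 0 in any of these groups. At day 10 this sum was below that of MEF, and Msln was above its MEF level. The 9 markers did not move together, so the sum does not give the direction of each. For Cdh3, fetal TEC differed from MEF by -0.69 but from day 10 by 4.06, and for Upk3b by 7.20 and 8.27. For the rest the change against MEF was above that against day 10, as for Gpm6a (4.54 and -4.40) and Upk1b (5.61 and 0.81). The part of mesothelium RNA in the Msln level was not tested.

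Pkhd1l1 encodes fibrocystin-L, a very large membrane protein that in mouse coats the hair bundle of inner ear cells, and lies on chr15:44457494-44601369 (plus strand). Its level was 0.796 and 2.43 CPM in fetal TEC (52 and 120 counts), with no count in MEF. Programmed cells had 6.09 and 6.35 CPM at day 2 and 373, 366 and 302 CPM at day 10. Epcam-positive cells had 294 and 7.78 CPM and Epcam-negative cells 461 and 446 CPM. The gene was thus high in every library of day 10 and day 12 except Epcam-positive replicate 2, and fetal TEC lay under day 2. The day 10 mean was at least 14130-fold that of MEF, from a floor of 3 counts over the MEF group, which covers counting error only. Fetal TEC were at least 65.8-fold higher than MEF (edgeR adjusted p = 0.00961) and lower than day 10 (log2 change -7.75 ± 1.51, adjusted p = 0.00324). The call against MEF was lost without MEF replicate 2 (adjusted p = 0.051).

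The longest Pkhd1l1 transcript of 12.949 kb is longer than that of 99.3% of genes, and the 3 libraries with few counts in long genes include both fetal TEC libraries and Epcam-positive replicate 2. Genes of like length had a median log2 change of -2.31 between fetal TEC and day 10. Under the length offset Pkhd1l1 was still lower than at day 10 (log2 change -5.17, adjusted p = 0.00116). Of 4 tested relatives (fibrocystin, G8 domain and polycystin genes), 0 were higher and 3 lower in fetal TEC than in MEF, and 4 were lower than at day 10. Cemip, which takes part in the breakdown of hyaluronan, had no count in fetal TEC, 195 ± 25.8 CPM in MEF, 16.1 ± 2.03 CPM at day 2 and 793 ± 21.8 CPM at day 10. The polycystin gene Pkd1 had 58.7 ± 1.09 CPM in fetal TEC and 549 ± 46.7 CPM at day 10 (log2 -3.23 ± 0.38, adjusted p = 0.000208). The counts and changes of these relatives are given without the length offset and may carry the difference between libraries in long genes.

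Adamtsl2 encodes a secreted glycoprotein that binds fibrillin microfibrils and lies on chr2:27079379-27108981 (plus strand). Its level was 17.1 and 14.5 CPM in fetal TEC, against 0.207 and 0.181 CPM in MEF. In iTEC it was 15.4 and 17.6 CPM at day 2 and 266, 274 and 259 CPM at day 10. Epcam-positive cells had 421 and 148 CPM and Epcam-negative cells 114 and 126 CPM. Fetal TEC and day 2 overlapped, and day 10 lay inside the wide range of Epcam-positive cells and above Epcam-negative cells. The day 10 mean was 1375-fold the MEF mean. The fetal TEC level was above that of MEF by 6.33 ± 0.53 (edgeR adjusted p = 5.58e-05) and lower than day 10 (log2 change -4.08 ± 0.45, adjusted p = 0.000159). Given the length offset, these changes were 7.89 and -2.50, and genes of like length had a median of -1.47 in the contrast with day 10.

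Of 17 microfibril genes, all were tested, with 0 higher and 8 lower in fetal TEC than in MEF, and 2 higher and 9 lower than at day 10. These counts also carry the difference between libraries in long genes: genes of the transcript length of Adamtsl2 had a median log2 change of -1.58 against MEF. Fibroblast markers were lower in fetal TEC as well: of 10, 8 were lower than in MEF and 1, Dcn, was higher, with a median log2 change of -4.83 and sums of 3040 to 4559 CPM in fetal TEC and 63830 to 69550 CPM in MEF, with none at 0. The part of fibroblast RNA in these counts, and in the lower level of Rerg, was not tested. Adamtsl3 had 0.115 ± 0.163 CPM in fetal TEC and 11.3 ± 0.386 CPM in MEF (edgeR adjusted p = 0.00109), and Adamtsl5 had 1.61 ± 0.965 CPM in fetal TEC and 13.9 ± 4.73 CPM in MEF (adjusted p = 0.00125). Adamtsl1 had 8.24 ± 4.92 CPM in fetal TEC and 572 ± 8.62 CPM at day 10 (log2 -6.12 ± 0.47, adjusted p = 2.7e-05). At day 10 against day 2, 6 of the 17 were higher and 0 lower. Thsd4, a relative that promotes fibrillin assembly, had 437.6 ± 13.54 CPM at day 10 and 6.50 ± 0.0639 CPM at day 2 (log2 6.07 ± 0.72, adjusted p = 0.000732), and the latent TGF-beta binding protein Ltbp3 had 286 ± 10.9 CPM against 78.0 ± 4.61 CPM.

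**Figure D2:**
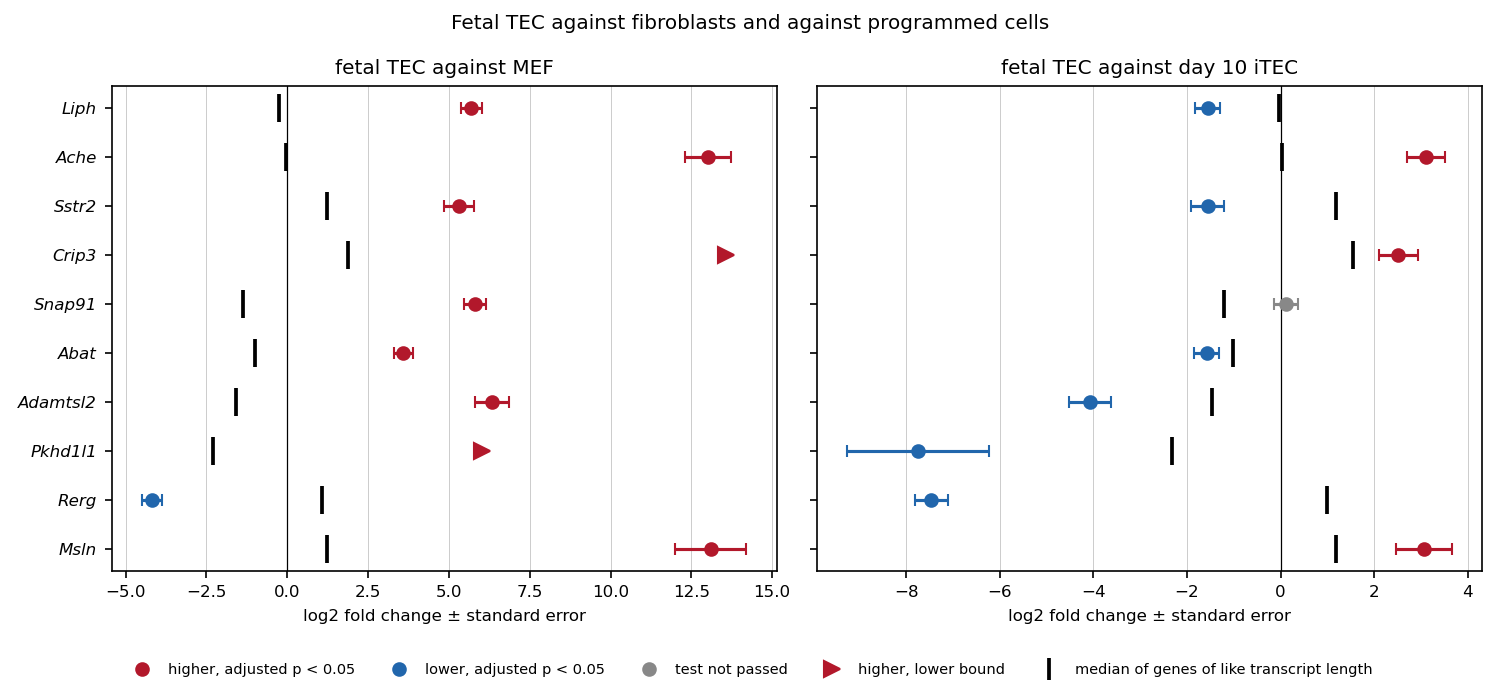
Log2 fold change with standard error of the 10 genes in fetal TEC against MEF (left) and against day 10 iTEC (right). Filled points are called higher or lower, grey points did not pass, triangles are lower bounds for genes with no count in MEF, and black ticks are the median change of tested genes of like transcript length. Against day 10 the changes run from -7.75 for Pkhd1l1 to 3.11 for Ache.

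The last genes act inside the cell. Crip3 encodes a small protein with LIM domains, described in mouse as a thymus LIM protein, and lies on chr17:46428926-46431776 (plus strand). Its level was 257 and 339 CPM in fetal TEC, with no count in either MEF library. The iTEC had 27.6 and 31.9 CPM at day 2 and 49.6, 52.7 and 53.5 CPM at day 10. Epcam-positive cells had 57.6 and 171 CPM and Epcam-negative cells 88.2 and 109 CPM. The gene was not detected in fibroblasts at these depths and was already present 2 days after Cre, and its fetal TEC level lay above all iTEC libraries. Fetal TEC were at least 12130-fold higher than MEF (edgeR adjusted p = 1.98e-05), and the day 2 mean was at least 1212-fold that of MEF. Fetal TEC were higher than day 10 by 2.52 ± 0.41 (adjusted p = 0.00154), or by 1.04 with the length offset (adjusted p = 0.00529), where genes of like length had a median of 1.54.

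Of 5 other LIM genes of this kind, all of them tested, 3 were higher and 0 lower in fetal TEC than in MEF. Crip2 had 597 ± 62.9 CPM in fetal TEC and 32.5 ± 7.61 CPM in MEF (log2 4.20 ± 0.94, edgeR adjusted p = 0.0058). Crip1 had 56.4 ± 12.5 CPM in fetal TEC and 15.4 ± 5.97 CPM in MEF (log2 1.87 ± 0.46, adjusted p = 0.00822). Genes of the transcript length of Crip3 had a median log2 change of 1.87 against MEF. The changes of these LIM genes are given without the length offset and may carry the difference between libraries in transcript length. Relative to day 2, 0 were higher at day 10 and 1, Csrp1, was lower, at 265 ± 7.57 CPM against 551 ± 32.6 CPM (log2 -1.06 ± 0.25, adjusted p = 0.0222).

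Rerg encodes a small Ras-like GTPase that was described as an oestrogen-regulated growth inhibitor and lies on chr6:137054825-137170497 (minus strand). Its level was 0.659 and 0.730 CPM in fetal TEC, against 10.4 and 15.0 CPM in MEF. After Cre it was 0.798 and 0.702 CPM at day 2 and 129, 116 and 122 CPM at day 10. Epcam-positive cells had 66.4 and 82.1 CPM and Epcam-negative cells 90.4 and 85.2 CPM. Rerg therefore goes against its description as a gene raised in iTEC at the early time, where its mean was 17.0-fold below that of MEF, before a day 10 mean that was 9.63-fold the MEF mean. Fetal TEC overlapped with day 2 as the lowest groups. Fetal TEC were lower than MEF (log2 change -4.19 ± 0.31, edgeR adjusted p = 3.43e-05) and lower than day 10 (log2 change -7.46 ± 0.36, adjusted p = 7.16e-06). Under the length offset these changes were -5.30 and -8.49.

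Of 9 tested Ras-like GTPases related to Rerg, 5 were higher and 2 lower in fetal TEC than in MEF, and 5 were higher and 2 lower than at day 10. Rasd1 had 95.6 ± 36.0 CPM in fetal TEC, 0.0553 ± 0.0782 CPM in MEF and 1.96 ± 0.389 CPM at day 10 (edgeR adjusted p = 0.000518 against MEF). Rasd2 had 18.3 ± 9.55 CPM in fetal TEC and 0.0401 ± 0.0567 CPM in MEF (adjusted p = 0.000697). Between the days, 2 were higher and 0 lower at day 10 than at day 2, with Rasl11b at 23.9 ± 1.87 CPM against 1.13 ± 0.231 CPM (log2 4.41 ± 0.56, adjusted p = 0.00102).

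Between day 2 and day 10 the 10 genes followed separate courses. The levels of both days entered the choice of the genes, so the differences between the days are given as a description, and nothing is read from the calls or their count. At day 10 against day 2, 8 of the 10 were called higher (8.24% of all tested genes were) and 1, Liph, was called lower (4.41% of all genes, 12.6% in either direction). The median change was 3.27, beside 0.02 over all genes. Ache was higher at day 10 by 7.62 ± 0.57, Rerg by 7.35 ± 0.35 and Msln by 6.38 ± 0.81 (log2 ± standard error). These 3 genes had at least 62.8 CPM at day 10 and at most 1.12 CPM at day 2. Pkhd1l1 was higher by 5.80 ± 1.37 and Adamtsl2 by 4.01 ± 0.45. Abat, Snap91 and Sstr2, which were above their MEF levels already at day 2, were higher again by 2.52 ± 0.28, 2.46 ± 0.29 and 2.18 ± 0.37. Crip3 differed by 0.80 ± 0.42 and was not called, although its 3 day 10 libraries all lay above both day 2 libraries. Liph was lower at day 10, with a log2 change of -1.22 ± 0.24. The call for Liph was lost on leaving out either day 2 library or day 10 replicate 2 or 3 (edgeR adjusted p = 0.0534 to 0.1), that for Pkhd1l1 on leaving out any library of either day (0.0568 to 0.211) and that for Sstr2 on leaving out either day 2 library (0.0759 and 0.0557).

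Markers of other cell types differed between the days as well. The 9 epidermis and hair markers summed to 735 to 754 CPM at day 10 with Krt25 at 0, and to 6.75 to 7.50 CPM at day 2 with Krt1, Krt36, Krt25 and Krt35 at 0. Of these, 3 were higher at day 10, namely the hair keratins Krt83, Krt33a and Krt36, and 0 were lower. The 12 neuron markers summed to 198 to 215 CPM at day 10 with none at 0, and to 18.4 to 21.5 CPM at day 2 with Rbfox3, Snap25, Elavl3 and Dcx at 0. Of 10 tested, 2 were higher at day 10, namely Stmn2 by 4.32 ± 0.33 (edgeR adjusted p = 9.51e-05) and Syt1 by 4.47 (adjusted p = 0.0176), and 0 were lower. The 9 mesothelium markers summed to 118 to 130 CPM at day 10 and 70.0 to 77.4 CPM at day 2, with 5 higher and 1, Cdh3, lower. Their part in the time courses of the 10 genes was not tested.

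**Figure D3:**
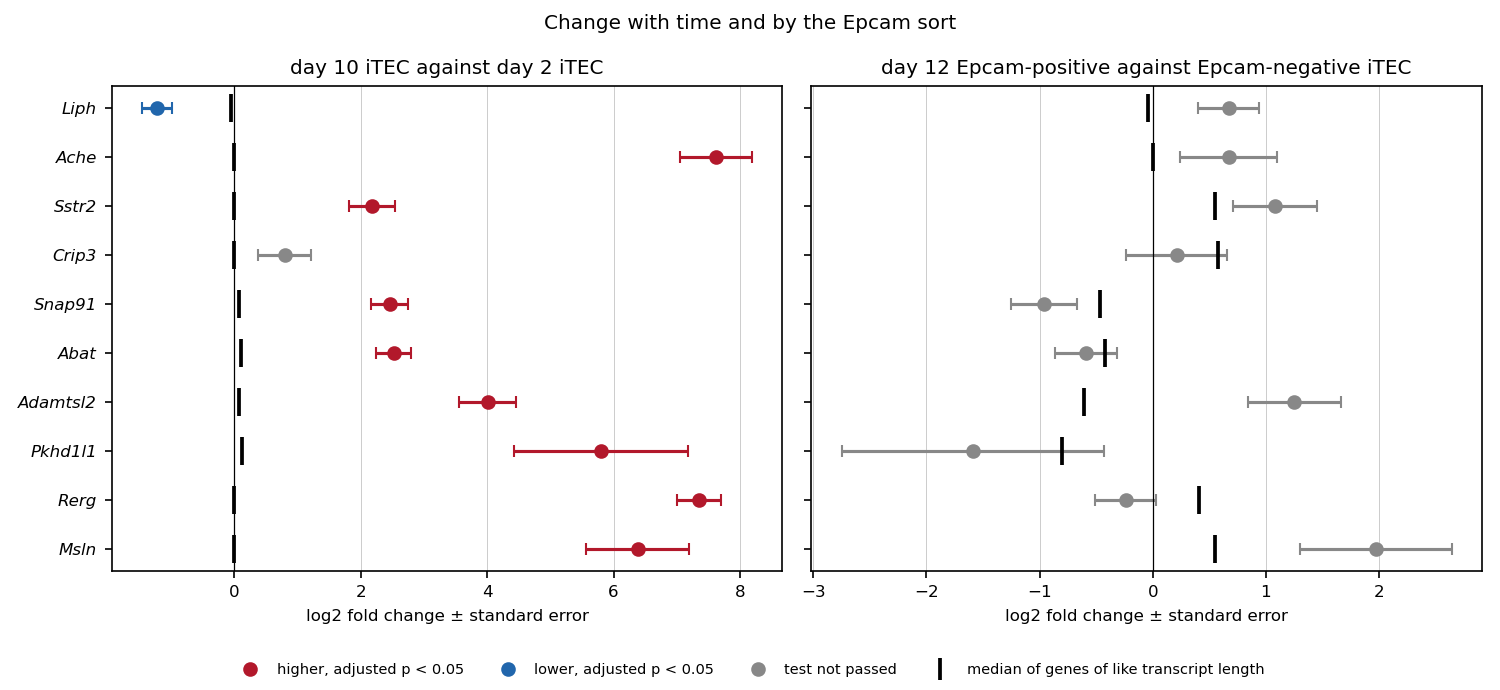
Log2 fold change with standard error of the 10 genes at day 10 against day 2 (left) and in Epcam-positive against Epcam-negative iTEC of day 12 (right), with the same colours and black ticks for genes of like transcript length as in the plot for fetal TEC. The changes with time run from -1.22 for Liph to 7.62 for Ache, and no gene passed the test for the sort.

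The groups sorted for Epcam differed in the sex of the cells as well as in the gate. Xist was at 688 to 923 CPM in Epcam-negative and at most 1.265 CPM in Epcam-positive cells. The 4 Y-linked genes summed to at most 0.0144 CPM in Epcam-negative and 65.6 to 226 CPM in Epcam-positive cells. Differences by the sort thus cannot be told apart from sex or the culture of origin. The libraries of the sorted groups did not overlap for 8 of the 10 genes, as for 45.4% of all tested genes. Liph, Sstr2, Adamtsl2 and Msln were the 4 with higher and Snap91, Abat, Pkhd1l1 and Rerg the 4 with lower values in Epcam-positive cells. In the edgeR fit 0 of the 10 genes passed (0.241% of all tested genes were called higher and 0.0176% lower, 0.259% in all), with adjusted p from 0.197 to 0.827, which does not show that the levels are equal. By unadjusted p under 0.05 there were 5 (19.2% of all genes), namely Liph, Sstr2, Adamtsl2, Msln and Snap91, and the DESeq2 Wald test called the same 5 (11.5% of the genes with an adjusted p). Epcam itself missed the threshold in the same fit (log2 5.38 ± 0.88, adjusted p = 0.0632). The log2 differences were 0.67 ± 0.27 for Liph, 1.08 ± 0.37 for Sstr2, 1.25 ± 0.41 for Adamtsl2, 1.97 ± 0.67 for Msln and -0.96 ± 0.29 for Snap91. Epcam-positive replicate 2 is among the libraries with few counts in long genes, and with the length offset Snap91 was at -0.11 (adjusted p = 0.881), Msln at 1.38 (adjusted p = 0.238) and Adamtsl2 at 2.06, which passed (adjusted p = 0.0151). Abat, at -0.59 ± 0.27 without the offset, was at 0.13 with it, and Crip3, at 0.21 ± 0.45, was at -0.69. For 7 of the 10 genes, all but Ache, Crip3 and Abat, the sign held under each alternative and each library left out. Ache and Crip3 overlapped between the sorted groups, and the Epcam-positive libraries had 98.1 and 243 CPM of Ache and 57.6 and 171 CPM of Crip3. Without Epcam-positive replicate 1, 8 of the 10 passed (53.5% of all genes), and without replicate 2, 1 passed (2.8% of all genes), so that single libraries decide this comparison. The 12 skeletal muscle markers summed to 34.1 and 753 CPM and the 12 TEC markers to 4463 and 40540 CPM in the Epcam-positive libraries, and to 6.34 to 8.99 CPM and 4032 to 4178 CPM in Epcam-negative cells. Macrophage markers summed to 76.5 to 229 CPM in Epcam-positive and 13.46 to 18.06 CPM in Epcam-negative cells, where Adgre1, C1qa, C1qb, C1qc and Fcgr1 were at 0, and Lyz2 was the 1 of 12 that was called (log2 7.67 ± 1.15, edgeR adjusted p = 0.0453). Epidermis and hair markers summed to 259 to 2783 CPM in Epcam-positive and 147 to 152 CPM in Epcam-negative cells, and mesothelium markers to 168 to 394 CPM and 130 to 153 CPM. Fibroblast markers summed to 2970 to 33240 CPM in Epcam-positive and 11120 to 12040 CPM in Epcam-negative cells. Their part in the levels of the 10 genes was not tested.

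Levels of different genes can be set side by side only per length, here as CPM per kb of exonic sequence. Counts did not scale with transcript length in the fetal TEC libraries, so the order is given for day 2 and day 10 only. At day 2 it was led by Liph (26.2 ± 0.648) and Crip3 (19.6 ± 1.96; SD, n = 2). At day 10 it was led by Rerg (44.8 ± 2.33), Abat (40.4 ± 1.22), Crip3 (34.2 ± 1.34) and Adamtsl2 (33.4 ± 0.933; n = 3). Rerg, first at day 10 by this measure, had 0.275 ± 0.0250 at day 2. The order depends on the length used. All annotated exons span 7.748 kb for Abat and 2.731 kb for Rerg, whereas their longest transcripts are 4.636 and 2.262 kb. By the longest transcript, Abat would stand above Rerg at day 10.

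The likeness of patterns was measured as Pearson's r of log2(CPM + 1) over the 13 libraries, as a description without a p, since libraries of a group are alike and share their processing. Among the 10 genes, Abat was most like Adamtsl2 (0.96) and Snap91 (0.95), and Ache was most like Msln (0.92). Crip3 and Rerg had the lowest r, at 0.03. Rerg thus stood nearest to Pkhd1l1 (0.77), the other gene that fetal TEC held at a trace.

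**Figure D4:**
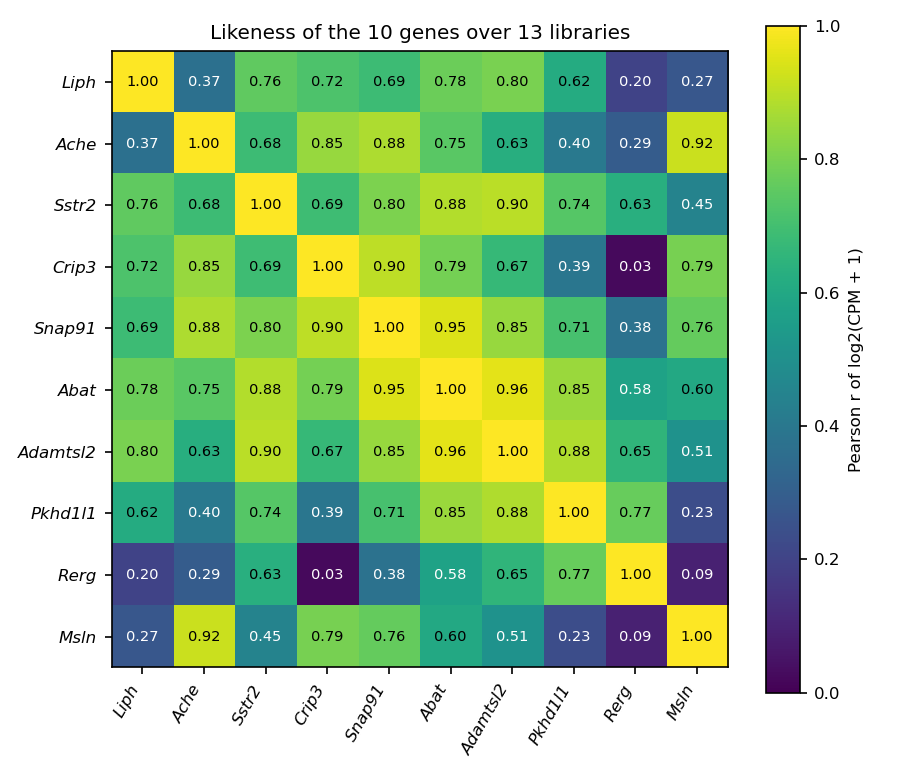
Pearson's r of log2(CPM + 1) between each pair of the 10 genes over 13 libraries, from 0 in dark to 1 in yellow. The highest values are those of Abat with Adamtsl2 (0.96) and Snap91 (0.95), and Rerg has the lowest, at 0.03 with Crip3 and 0.09 with Msln.

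Over 13504 other genes with at least 5 CPM in a group mean, those nearest to each of the 10 were named by the same measure. Ache was followed by Rhbdl3 (r = 0.993), Psmb11 (0.986) and Nrtn (0.980). Psmb11, the thymus-specific proteasome subunit of cortical TEC, had 2310 CPM in fetal TEC, 0.0270 CPM in MEF, 1.12 CPM at day 2 and 67.9 CPM at day 10 as group means. The Notch ligand Dll4, which is needed for T cell fate, was nearest to Crip3 (0.983) and among the 3 nearest to Snap91 (0.952), with 219 CPM in fetal TEC, no count in MEF, 27.7 CPM at day 2 and 101 CPM at day 10. Krt18, a keratin of simple epithelia, was next to Crip3 (0.975). Msln was followed by the epithelial adhesion gene Cdh1 (0.991), Epb4.1l5 (0.988) and the desmosome gene Pkp3 (0.980). Cdh1 had 307 CPM in fetal TEC, 0.250 CPM in MEF, 0.250 CPM at day 2 and 44.4 CPM at day 10.

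Abat was followed by Dtx1 (0.996), a regulator of Notch signalling, with 29.8 CPM in fetal TEC, 0.0408 CPM in MEF, 17.1 CPM at day 2 and 137 CPM at day 10. The hedgehog ligand Dhh was among the 3 nearest to both Abat (0.966) and Adamtsl2 (0.961), where Gm14137 (0.962) and Dlx3 (0.961) were the others. Pkhd1l1 was followed by Dlgap3 (0.991), Nebl (0.984) and the hedgehog antagonist Hhip (0.979). Rerg was followed by the neural adhesion gene L1cam (0.989), Ppic (0.978) and Rcan2 (0.978), each of which was lower at day 2 than in MEF by its mean. For Sstr2 the nearest were Brinp2 (0.959), Plekhb1 (0.958) and Lrrc3b (0.952). For Liph they were Srxn1 (0.950), which protects against oxidation, Cd1d1 (0.929) and Prr9 (0.928), and Srxn1 had 307 CPM in fetal TEC, 46.2 CPM in MEF and 1051 CPM at day 2. With a pseudocount of 0.1 CPM in place of 1, 19 of the 30 named neighbours were again among the nearest 3, while Cdh1 was in place 13 for Msln (r = 0.974) and Nebl in place 27 for Pkhd1l1 (r = 0.934).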

How the data were processed

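RNA-seq of 13 mouse libraries was used. The authors deposited unscaled read counts for each gene symbol. FastQC, Trimmomatic, HISAT2, SAMtools, StringTie, DESeq2 and the mm10 build are named per the submitters' processing notes, without versions. Settings and strand use are not given in the sources used here. Columns labelled as lacking Cre were assigned to MEF, the only untreated fibroblast group. The 10 genes, the partner and marker lists and the tests were chosen with earlier results of these data known.

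Counts were fitted in R 4.3.3 with edgeR 4.0.16 (TMM, filterByExpr by group, robust quasi-likelihood, 1 mean per group over all 13 libraries). Of 24394 symbols, 17004 were tested, the 10 genes among them, and 4044 were at 0 in every library. Calls are at a Benjamini-Hochberg adjusted p under 0.05, with no fold minimum. Total counts ranged from 35805780 to 86465460 per library. Lower bounds use 3 counts over a group at 0 and cover counting error only. Transcript lengths and positions came from GENCODE M21 (95.8% of symbols), and promoters from RefSeq. Named genes are the 10, up to 2 called partners of each list with the smallest p in a comparison, the 3 genes of highest correlation, and Foxn1 and cell type markers. No replicate pair agreed within sampling noise, so none was merged.

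Alternatives were DESeq2 1.42.0 size factors and Wald test, scaling by library size alone, a stricter filter (1 CPM in 2 libraries) and none, a fit of the 2 groups compared, the 10 libraries without the length difference, replicate number as a block, a length offset (20 length classes, chosen after seeing the data), another pseudocount (0.1 CPM) and each library left out. Steps were tested on simulated data. Python 3.11.15 with pandas 2.3.3, numpy 2.4.6, scipy 1.17.1 and matplotlib 3.10.9 did the rest.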

Additional observations from a re-analysis of the deposited data

How the results depend on the processing

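In fetal TEC against MEF all 80 values of the 10 genes kept sign and call under the alternatives, and 129 of 130 did with 1 library left out (Pkhd1l1 without MEF replicate 2 being the exception). Genes called there ran from 5507, without MEF replicate 2, to 12611, without Epcam-positive replicate 1. In fetal TEC against day 10, 77 of 80 and 129 of 130 values kept both: Snap91 was -0.17 by library size alone and 0 to 0.22 with 1 library left out, and the length offset made Snap91 pass (1.41) and ended the call of Abat (-0.56). The median of all genes in fetal TEC against MEF, 0.184, was 0.041 by library size alone and 0.322 with DESeq2 size factors, and that against day 10, 0.097, was -0.171 and 0.25.

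For day 10 against day 2, 2151 genes were called (65.1% higher): 10927 (51.4%) in a fit of only these groups, 8373 (52.9%) in the 10 libraries without the length difference, 3673 by DESeq2, 831 with the replicate block, and 564 (without day 2 replicate 1) to 5792 (without Epcam-positive replicate 1). Calls of Liph and Pkhd1l1 were lost with the replicate block (adjusted p = 0.0893 and 0.0928). Crip3 passed in 2 of the alternatives and without either Epcam-positive library.

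For the sort, 44 genes were called (93.2% higher): 7 by library size alone (71.4%), 24 without a filter, 1 with the replicate block, 69 with the length offset, 0 in a fit of these groups alone, 1760 by DESeq2, 1651 in the 10 libraries (72.4%), and 0 to 9545 with 1 library left out. Of the 10 genes, 1 passed with the length offset, 5 by DESeq2, 4 in the 10 libraries and 0 to 8 with 1 library left out. Crip3 turned to -0.32 by library size alone, -0.69 with the length offset and -0.81 in the 10 libraries, Abat to 0.13 with the length offset and Ache to -0.16 in the 10 libraries. Without 1 library Ache ran from -0.13 to 1.18 and Crip3 from -0.78 to 0.79. Deviations of libraries with the same replicate number correlated at -0.018 to 0.053 in the other comparisons and at 0.243 in the sorted groups. With 2 libraries in each sorted group both numbers give the same value, so whether the numbers pair the sorted samples was not settled. The cause of these changes was not tested. Where a group of 2 lost 1 library, the lone library was assumed to vary like the other groups. Comparisons with fetal TEC could not be run in the 10 libraries. Depth limits genes at 0 in MEF to a bound.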
